A study of Mus musculus with 8 samples.

Results

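Egr1, Egr2, Egr3, Egr4, Nr4a1, Nr4a2, Nr4a3, Npas4 and Arc were followed in cultured mouse cortical neurons with and without the histone variant H2BE. These 9 genes were taken by symbol from the authors' deposited table of 26229 genes, each matched 1 row, and all 9 had an adjusted p, as did 18085 genes in all. Neurons were taken from the cortex of mouse embryos at E16.5, kept 12 days in culture, and their polyadenylated RNA was sequenced. There were 4 wild-type libraries and 4 libraries labelled H2BE-KO/mCherry-KI, in which H2bc21, the gene of H2BE, is knocked out and mCherry is knocked in, and the labels number them as biological replicates. Loss of H2BE and presence of mCherry came together and cannot be told apart. The labels name no stimulation or silencing of the neurons, and the sources used here do not give strain, sex or litter.

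The members are immediate early genes, which neurons transcribe within minutes of calcium entry without needing newly made protein. Calcium and kinase signals act on transcription factors that already sit in the nucleus, among them CREB at cyclic AMP response elements (CRE) and serum response factor with its TCF partners at the CArG box. All but Arc encode transcription factors that pass the signal on to later genes, whereas Arc encodes a protein of the postsynapse. Their RNA is short-lived, so that the level at any moment follows recent network activity, and in cultures of cortical neurons such activity arises spontaneously.

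The CRE is a known element of several of these promoters, so the stretches that hold its core are shown first. Promoter windows of 250 bases before to 50 bases after the start were taken from RefSeq (GRCm38.p6) and matched Egr2, Egr4, Nr4a1, Nr4a2, Nr4a3 and Npas4, or 6 of the 9 members, and not Egr1, Egr3 or Arc. The letters TGACG, the core of the CRE, were searched on both strands, where the reverse strand reads CGTCA. The full palindrome TGACGTCA, which contains the core, was searched as well. Below are 30 bases of each promoter, 5′ to 3′ on the strand of the gene, with the CRE core in capitals and, in Egr2, also the CArG box.

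Egr2, chr10:67537792-67537821, plus strand: tcagtCCATATATGGgcagcgaCGTCAcgg

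Egr4, chr6:85513750-85513779, minus strand: gcggcggcagcaaCGTCAcaggccgagctt

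Nr4a1, chr15:101266610-101266639, plus strand: ctgCGTCAatggaaccccgcgtgCGTCAcg

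Nr4a2, chr2:57124120-57124149, minus strand: cgCGTCAcggagcccggccgggcTGACGgg

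Nr4a3, chr4:48045070-48045099, plus strand: agggTGACGtagcgtcccatgtCGTCAcat

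Npas4, chr19:4990129-4990158, minus strand: ccgttcgaCGTCAcgggaTGACGtcggaag

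The CRE core was present in the promoters of all 6 members that had a window. It occurred 4 times each in Nr4a1, Nr4a2 and Nr4a3 and 2 times each in Egr4 and Npas4. Egr2 has 5 annotated starts, and 3 of its windows held 2 cores and the other windows 0. These 3 windows overlap and share the same 2 cores. Among all 32817 windows of the table, 20.8% held at least 1 core, 5.01% at least 2 and 0.232% at least 4. These shares are over windows not matched to the members for base composition, so no enrichment is read from them. The full palindrome TGACGTCA was in none of the members' windows and in 1.79% of all windows. An exact match to the CArG box (CC, 6 letters A or T, then GG) was found only in Egr2 among the members with a window. It was in 4 of the 5 Egr2 windows and in 1.63% of all windows. Stretches that differ from it by 1 letter were not searched. The 3 overlapping Egr2 windows share 1 CArG box, and the remaining match is a separate one. Nr4a2 also held a MEF2 site and a match to TATAAA, the letters of the TATA box, which 3.19% and 13.6% of all windows held. The TATAAA match is on the reverse strand, begins at position -164 and overlaps the MEF2 site. The letters AAAGGTCA, to which Nr4a proteins bind as monomers, and GCGTGGGCG, to which Egr proteins bind, were in no member's window, against 1.51% and 0.612% of all windows. The letters CACGTG of the E-box were in 1 other Egr2 window and in 7.15% of all windows. In the GENCODE M21 annotation the 30 bases of Npas4 lie within an exon, since its longest transcript starts further upstream, and the other stretches lie outside exons. A match is a description of letters and not a measured binding site.

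**Figure D1:**
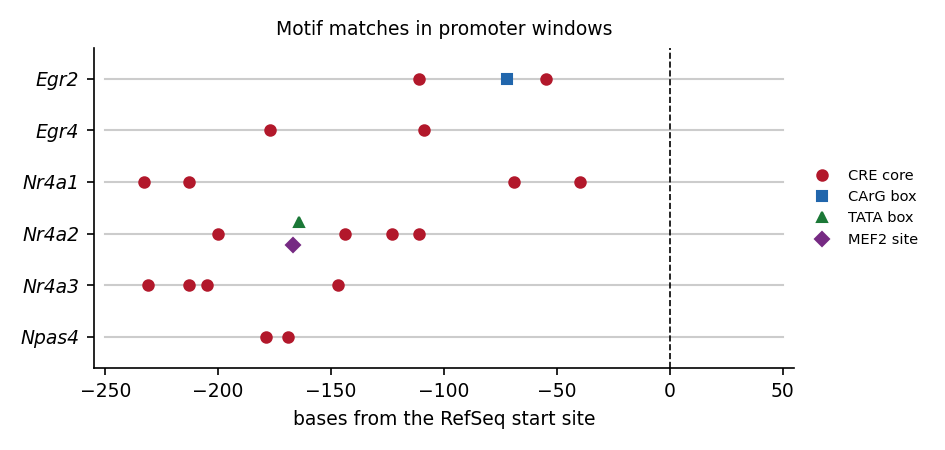
Positions of motif matches in the RefSeq promoter windows of 6 members, in bases from the annotated start, with negative positions upstream and 1 row per gene (for Egr2, the most upstream of the overlapping windows with 2 cores). The 3 Nr4a genes each carry 4 CRE cores, all upstream of the start, while Egr2, Egr4 and Npas4 carry 2.

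The 250 bases before the start are given in full for Nr4a1 and Nr4a2, paralogs with the same number of cores, which Nr4a3 also carries. Their deposited fold changes lay on opposite sides of 0, but neither passed the threshold (adjusted p = 0.254 and 0.262, DESeq2). The confidence intervals of Nr4a1 and Nr4a2 overlapped, so no difference in response between these genes is read. A link between promoter letters and fold change was not tested. Only CRE cores are in capitals, and the Nr4a1 stretch lies in an intron of a longer annotated Nr4a1 transcript.

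Nr4a1, chr15:101266596-101266845, plus strand: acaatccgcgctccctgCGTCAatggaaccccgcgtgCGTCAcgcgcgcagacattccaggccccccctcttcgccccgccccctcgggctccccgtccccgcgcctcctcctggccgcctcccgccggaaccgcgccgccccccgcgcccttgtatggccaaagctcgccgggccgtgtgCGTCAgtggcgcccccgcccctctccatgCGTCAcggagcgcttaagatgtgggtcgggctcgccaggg

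Nr4a2, chr2:57124004-57124253, minus strand: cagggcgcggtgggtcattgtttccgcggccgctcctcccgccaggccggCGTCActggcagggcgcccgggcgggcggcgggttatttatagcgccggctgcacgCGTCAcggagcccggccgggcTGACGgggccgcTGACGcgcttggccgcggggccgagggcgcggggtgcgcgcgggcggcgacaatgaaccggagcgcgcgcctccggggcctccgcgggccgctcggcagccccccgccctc

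The deposited values are a mean normalized count over all 8 libraries, which is the read count divided by a size factor for depth, and a log2 fold change with its standard error (SE), Wald p and Benjamini-Hochberg adjusted p from DESeq2. Values per library were not analysed here, so the spread of the replicates enters through the SE. The summed mean normalized count was 3.96e+07, and counting error alone gave SEs of only 0.011 to 0.044 for the members. The table names no direction. It was taken from H2bc21, which had the smallest adjusted p of all genes (4.49e-68, DESeq2) and a deposited value that reads as 0.0912 times the wild-type level if the knockout is the lower group. With the opposite direction every sign below would swap. Of all tested genes, 3948 passed an adjusted p of 0.05. The neuron identity of the cultures was visible in their markers, all 10 of which had mean normalized counts of at least 2650. Tested markers of other cells had medians of 244 for astrocytes, 93.0 for oligodendrocytes, 15.5 for microglia and 12.6 for endothelial cells. Single genes among them were high, such as the astrocyte marker Slc1a2 at 13490 and the oligodendrocyte marker Mbp at 1169, both named after their values were seen.

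All 9 genes were expressed at moderate to high levels, with Egr1 the most and Egr3 the least abundant per exon length. Egr1 (ENSMUSG00000038418), the zinc-finger factor most often used as a marker of active neurons, had a mean normalized count of 9279, or 2069 per kb of exon, above 95.5% of tested genes. Nr4a3 (ENSMUSG00000028341), the orphan nuclear receptor NOR1, followed at 1477 per kb. Npas4 (ENSMUSG00000045903) had 1290 per kb, and Nr4a1 (ENSMUSG00000023034) had 1244 per kb. The gaps between these 3 neighbours were 0.20 and 0.05 on the log2 scale. By comparison, the approximate SE of a gene's log2 level over all libraries, taken as the deposited SE divided by 2, was 0.20 for Nr4a3, 0.38 for Npas4 and 0.26 for Nr4a1, so their order was within their spread.

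Lower levels per kb were those of Arc (ENSMUSG00000022602, 796), Nr4a2 (ENSMUSG00000026826, 527) and Egr2 (ENSMUSG00000037868, 375). Egr4 (ENSMUSG00000071341) stood at 245 per kb and Egr3 (ENSMUSG00000033730) at 121 per kb, the latter above 52.2% of tested genes. Egr3 and Egr4 had nearly equal mean normalized counts of 531 and 526, and the difference per kb comes from exon lengths of 4406 and 2148 bases. Among other neighbours in the order, the gaps were between 1.83 and 3.01 times their combined approximate SE. Within each family the levels were spread widely: Egr1 was far above the other Egr genes, and Nr4a2 was below Nr4a1 and Nr4a3.

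**Figure D2:**
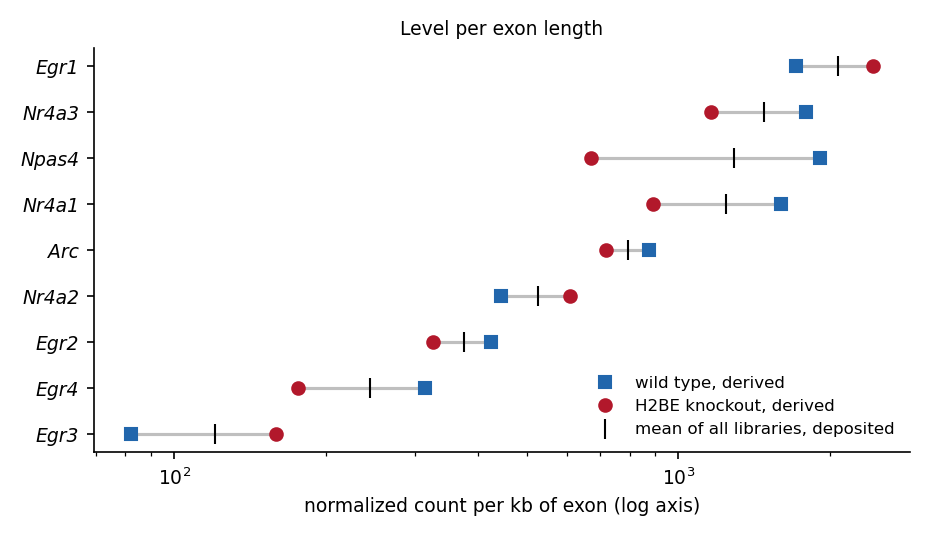
Normalized count per kb of exon (log axis) for each gene, with the deposited mean over all libraries as a black tick and the 2 genotype means derived from that mean and the deposited fold change as a square (wild type) and a circle (knockout). Egr1, Egr3 and Nr4a2 have the knockout circle on the right, the other 6 genes have it on the left, and Npas4 has the widest separation.

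Egr3 rose in the knockout, and none of the other 8 genes passed the threshold in either direction. That is 1 of 9 members, or 11.1%, at an adjusted p under 0.05 in the authors' deposited table (DESeq2). Of all tested genes 21.8% passed, 11.0% being higher and 10.9% lower in the knockout. Among those with a mean count of at least 100, 28.8% passed. With only 9 genes, nothing particular to the members is read from this share. At an unadjusted p under 0.05 there were 2, Egr3 and Npas4, against 33.0% of all tested genes. By value, 3 members lay above 0 and 6 below, with a median log2 fold change of -0.38 beside -0.02 over all tested genes. The members did not share 1 direction, and each family had values on both sides of 0.

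Among the Egr factors only Egr3 was called. Egr3, a zinc-finger factor also needed for muscle spindles, lies at chr14:70077203-70082614 on the plus strand (GRCm38). Its log2 fold change in the authors' deposited table was 0.95, with an SE of 0.37 and a 95% interval from 0.24 to 1.67 (adjusted p = 0.0429, DESeq2). This is a 1.94-fold higher level, or derived genotype means of 362 normalized counts in wild type and 701 in the knockout. The call was a narrow one, since with this SE a log2 fold change of 0.93 was the smallest that could pass. It was lost when the adjustment ran over all genes with a p, without the filter on low counts (adjusted p = 0.0619, Benjamini-Hochberg on the DESeq2 p). It was also lost against a t distribution with 6 degrees of freedom (adjusted p = 0.192) and against a null scaled to the middle of all Wald statistics (adjusted p = 0.877). Under these last settings only 1 and 70 of all 18085 tested genes passed, so the loss is not particular to Egr3.

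Egr1 had a value in the same direction as Egr3 with an interval that reached 0. Its deposited log2 fold change was 0.50 (SE 0.29, 95% interval -0.06 to 1.07, adjusted p = 0.213, DESeq2), with derived means of 7672 normalized counts in wild type and 10886 in the knockout. The gene is on chromosome 18, from 34859823 to 34864984 on the plus strand. The other 2 Egr genes had negative values. Egr2, known for its part in hindbrain patterning and in myelination by Schwann cells, is at chr10:67535475-67542188 on the plus strand, and the authors' deposited table gave it -0.38 (SE 0.35, adjusted p = 0.476, DESeq2). Egr4, at chr6:85511121-85513589 on the minus strand, had -0.83 (SE 0.57, 95% interval -1.95 to 0.29, adjusted p = 0.318, DESeq2). Egr3 and Egr4 had nearly the same mean count and point estimates of similar size in opposite directions, but the SE was 0.57 for Egr4 against 0.37 for Egr3.

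The 3 Nr4a genes, orphan nuclear receptors that act without a known classical hormone ligand, gave no call. Nr4a1, or Nur77, at chr15:101254269-101274795 on the plus strand, was at -0.85 on the log2 scale in the authors' deposited table, with an SE of 0.52 and a 95% interval from -1.87 to 0.18 (adjusted p = 0.254, DESeq2). Its derived means were 5609 normalized counts in wild type and 3122 in the knockout. Nr4a3, at chr4:48045153-48086447 on the plus strand, had -0.63 (SE 0.40, adjusted p = 0.271, DESeq2). Nr4a2, or Nurr1, which midbrain dopamine neurons need for their development, lies at chr2:57106830-57124003 on the minus strand. Its value was positive, at 0.46 (SE 0.29, 95% interval -0.10 to 1.02, adjusted p = 0.262, DESeq2). Thus the 2 more abundant receptors lay below 0 and the least abundant above it, with all 3 intervals including 0.

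Npas4 had the most negative value and the widest error of the 9 genes. It encodes a bHLH-PAS factor largely restricted to neurons that responds to calcium entry and is known for control of inhibitory synapses and of Bdnf, and it lies at chr19:4984355-4990316 on the minus strand. In the authors' deposited table its log2 fold change was -1.51 (SE 0.75, 95% interval -2.99 to -0.03, unadjusted p = 0.0458, adjusted p = 0.142, DESeq2). The derived means were 7895 normalized counts in wild type and 2777 in the knockout, a 2.84-fold difference. With that SE a difference had to reach 3.79-fold to pass, so a change of the size estimated could not be called with these libraries. Over the alternatives its adjusted p ran from 0.113 to 0.959.

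Arc had the value closest to 0. Its product binds proteins of clathrin-mediated endocytosis and promotes removal of AMPA receptors from synapses, and the gene is at chr15:74669083-74672570 on the minus strand. The deposited log2 fold change was -0.28 (SE 0.41, 95% interval -1.09 to 0.53, adjusted p = 0.682, DESeq2), with derived means of 2670 normalized counts in wild type and 2194 in the knockout. The interval spans from 0.468 to 1.44 times the wild-type level, so a halving of Arc and no change at all both lie inside it.

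**Figure D3:**
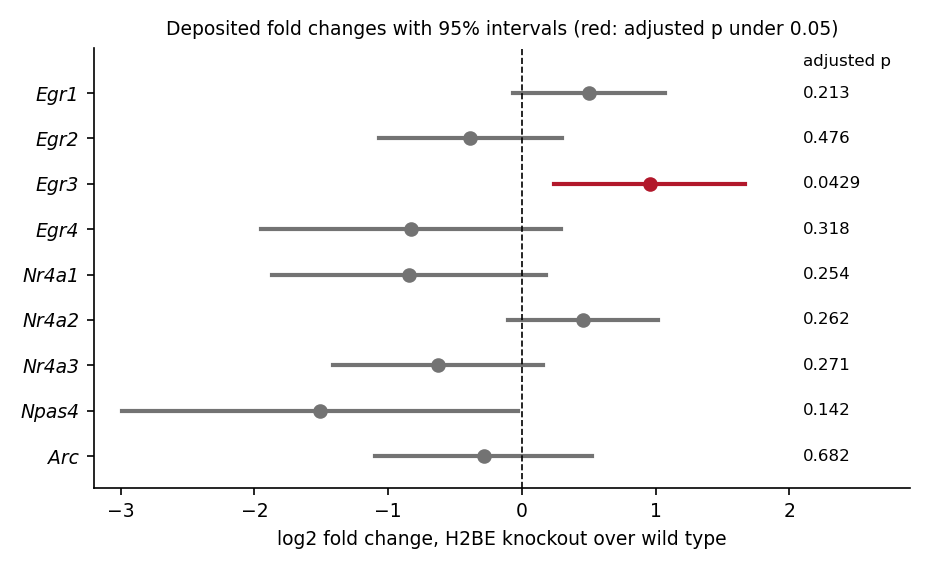
Deposited log2 fold change, knockout over wild type, for each gene (point) with its 95% interval (line) and adjusted p (right). The red line of Egr3 lies fully above 0, the line of Npas4 ends just below 0, and the other 7 lines cross 0.

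A few pairs of members had normal 95% intervals that did not overlap. Of the 36 pairs of members, 3 had 95% intervals that did not overlap, namely Egr3 against Npas4, Nr4a1 and Nr4a3, with gaps between the log2 fold changes of 2.46, 1.80 and 1.58. No test of the difference between 2 genes was made, because their values come from the same libraries and how they vary together is not in the table. The share of such pairs among all tested genes was not computed, nor were the wider limits of a t distribution. Nothing particular to the members is therefore read from these pairs. Each of the 9 loci was free of other annotated genes in GENCODE M21, on either strand. Stretches of 50 bases of their transcripts were unique among transcripts of other genes in 8 of 9 members, and 3 of 5986 stretches of Nr4a3 also occurred in another gene's transcript in the same sense, so reads of the paralogs are well separable at that length.

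All 9 genes had larger errors than most genes of similar abundance. Each SE was set beside those of tested genes with a mean normalized count within 0.32 of its own on the log2 scale. The SE of Npas4 was 6.02 times the median of 953 such genes, every one of which had a smaller SE. For the other members the share of such genes with a smaller SE ran from 94.8% for Egr1 to 99.8% for Nr4a1. Nr4a1 had 4.23 times, Egr4 3.34 times, Arc 3.30 times and Nr4a3 3.26 times the median. The ratios were 2.56 for Egr2, 2.35 for Egr1, 2.28 for Nr4a2 and 2.14 for Egr3. Thus all 9 members exceeded 2 times the median, as did 6.40% of the 11537 tested genes with a mean count of at least 100. Counting error was a small part of this: for Npas4 the SE was 54.0 times what the number of reads alone would give, and for Egr3 it was 8.25 times. Egr3, the gene that was called, had the smallest ratio of the 9 although its mean count was among the lowest. The size of the fold changes was less extreme: the absolute value for Npas4 was above that of 99.6% of genes with a similar count, that for Nr4a1 above 95.5%, that for Egr3 above 93.1% and that for Arc above 62.4%.

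**Figure D4:**
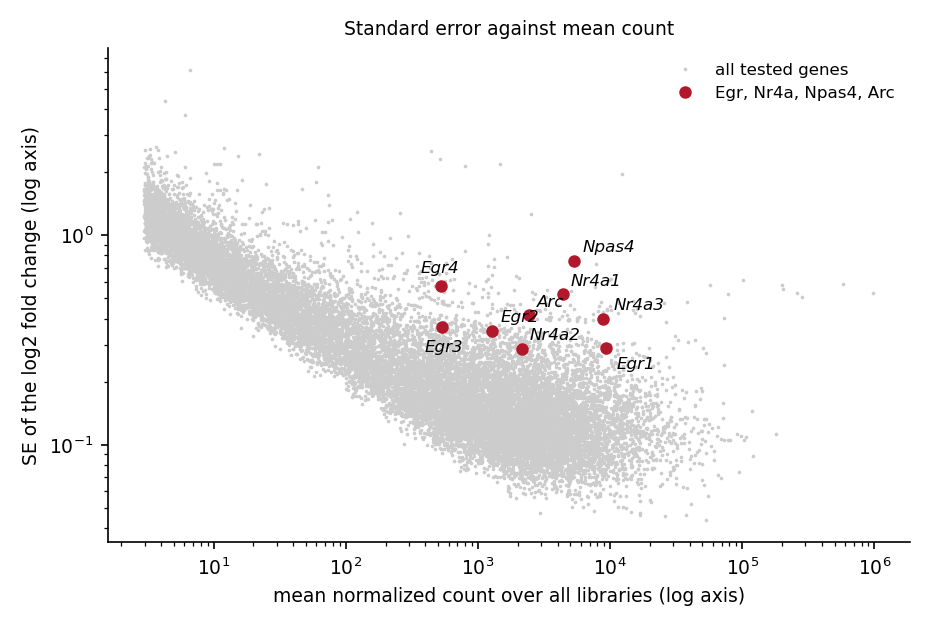
SE of the deposited log2 fold change against mean normalized count (both axes logarithmic) for all tested genes (grey) and the 9 members (red). The members lie in the upper part of the cloud at their counts, with Npas4 highest at an SE of 0.75.

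Calls among other immediate early genes were mostly lower in the knockout. Calls were made for 3 of 8 AP-1 factors and 9 of 30 further immediate early genes, beside 21.8% of all tested genes and 28.8% of those with a mean count of at least 100, and nothing particular to these lists is read from them. Of the 8 AP-1 factors, dimeric factors of the Fos, Jun and Atf3 group, the authors' deposited table had 3 that fell and 0 that rose, and the median of the 8 was -0.80. Fosb was at -2.29 (SE 0.62, adjusted p = 0.00254, DESeq2), Atf3 at -1.29 and Fosl2 at -0.77. Of 30 further immediate early genes, 8 fell and 1 rose, 21 were not called, and the median was -0.21. Rgs2, a brake on G protein signalling, was at -2.00 (SE 0.48, adjusted p = 4.20e-04, DESeq2), Crem, whose short product represses CRE-driven genes, was at -1.25 and Csrnp1 at -1.12. Ier5l rose to 1.61 (SE 0.33). Egr3 thus rose beside lists in which all 3 calls of the first and 8 of the 9 calls of the second were lower. Whether the members differ from these lists was not tested.

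Of 9 genes described as Npas4 targets, 4 fell and 0 rose, around a median of -0.62. The 44.4% called stands beside 21.8% of all tested genes and 28.8% of those with a mean count of at least 100. Nothing particular to this short list is read from it. Gpr3, a constitutively active receptor gene, was at -2.08 (SE 0.48), and Nptx2, the gene of a secreted pentraxin that clusters AMPA receptors, was at -1.93 (SE 0.50). Bdnf, the gene of brain-derived neurotrophic factor, was at -2.00 (SE 0.54, adjusted p = 0.00245, DESeq2) in the authors' deposited table. The fourth was Csrnp1, which is also in the preceding list. The derived sum of the 9 genes was 36874 normalized counts in wild type and 22418 in the knockout. By value 8 of the 9 lay below 0, as Npas4 did, among them Plk2 at -0.05 and Mdm2 at -0.16, and Syt10 was above at 0.15, these 3 being named after their values were seen. A link between these values and that of Npas4 was not tested.

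The genes that act upstream of the members showed mostly smaller differences, with smaller errors. The median SE was 0.16 for SRF and TCF factors, 0.13 for CREB and MEF2 factors and 0.15 for kinases and calcineurin subunits. It was 0.40 for the members, so the size of the values cannot be compared without these errors. None of the 6 SRF and TCF factors passed the adjusted threshold in the authors' deposited table (DESeq2), and 2 had an unadjusted p under 0.05. The most abundant of them were Mrtfb at 0.36 (SE 0.16) and Elk1 at 0.43 (SE 0.19). Of 9 tested CREB and MEF2 factors and coactivators, 2 rose, Mef2a at 0.46 (SE 0.12) and the CREB coactivator Crtc1 at 0.36 (SE 0.13). The 22.2% called lay near the 21.8% of all tested genes. Of 18 kinases and calcineurin subunits, 4 rose and 1 fell, with a median of 0.20, and the 27.8% called lay near the 28.8% of tested genes with a mean count of at least 100. Camk4, a nuclear calcium-dependent kinase that phosphorylates CREB, rose to 0.80 (SE 0.19), its activator Camkk2 to 0.71 (SE 0.14), the calcineurin subunit gene Ppp3cb to 0.53 and Camk2b to 0.53. The lower one, named after its value was seen, was Rps6ka2, a ribosomal S6 kinase gene, at -0.41 (SE 0.15). Of the members' partners, which include the Egr co-repressors Nab1 and Nab2, the Npas4 partner Arnt2 and the Nr4a partners of the Rxr family, 1 of 7 rose, Rxrb at 0.20 (SE 0.07). That is 14.3% beside 21.8% of all tested genes, and nothing particular to this short list is read from it.

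Genes for proteins that bind Arc or its endocytic pathway gave 5 higher and 1 lower of 12, although Arc itself was not called. The 50% called stands beside 21.8% of all tested genes and 28.8% of those with a mean count of at least 100. Nothing particular to this short list is read from it. Wasf1, an actin regulator gene, rose 2.30-fold in the authors' deposited table, which is 1.20 on the log2 scale with an SE of 0.17 (adjusted p = 6.28e-10, DESeq2). Sh3gl3, an endophilin gene, rose to 1.04 (SE 0.25) and Dnm2, a dynamin gene, to 0.41 (SE 0.09). The list shares Camk2b with the kinases. Named after their values were seen, the remaining calls were Sh3gl2, another endophilin gene, at 0.48 (SE 0.13), and Cacng2, the gene of the AMPA receptor auxiliary protein stargazin, which fell to -0.63 (SE 0.20).

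**Figure D5:**
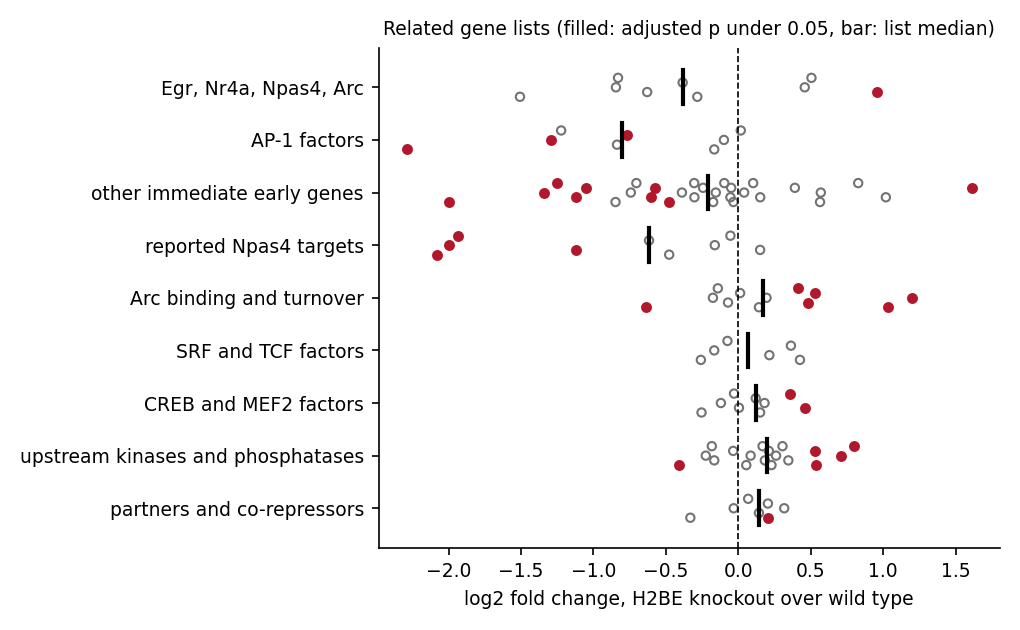
Deposited log2 fold changes, knockout over wild type, of the 9 members and of 8 related lists, 1 point per tested gene, filled where the adjusted p is under 0.05, with the list median as a bar. The filled points of the AP-1 factors and of the Npas4 targets lie below 0, those of the CREB and MEF2 factors above 0, and the members have a single filled point, Egr3.

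Markers of the cells in the cultures also held calls in both directions. Their counts stand beside 21.8% of all tested genes called and 28.8% of those with a mean count of at least 100. In bulk RNA, fewer cells of a type and less RNA per cell cannot be told apart. Of 8 interneuron markers, 4 fell and none rose, with log2 fold changes from -2.89 for Npy to -0.28, and their derived sum was 103089 normalized counts in wild type and 55043 in the knockout. Of 8 projection neuron markers, 5 rose and none fell, with derived sums of 32951 and 53256. Among 10 general neuron markers 3 rose and 1 fell, and they had derived sums of 324094 and 343240. Astrocyte markers gave 2 higher of 7, with derived sums of 10665 and 20449. Slc1a2 alone held 13490 of that list's summed mean count of 15557. Microglia markers gave 4 lower of 7 tested, and the derived sums of all 8 were 172 and 51.3 normalized counts. Endothelial markers gave 1 lower of 5 tested, and oligodendrocyte markers 1 higher of 7 tested. No marker with a row in the table had a mean count of 0. The derived sum of the 9 members was 38869 normalized counts in wild type and 30584 in the knockout, and the part of these markers' differences in it was not tested. Npas4, which was not called, gave 7895 and 2777 of that sum, whereas Egr3, the only member called, rose.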

How the data were processed

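The series compares 4 wild-type with 4 knockout libraries of cortical neurons, grouped by their titles. The only file is a table of the authors' comparison. Reads were mapped to mm10 and compared with DESeq2 or DESeq, both of which the notes name, per the submitters' processing notes, and libraries were made with a stranded mRNA kit, per the labels' protocols. The sources used here do not give the aligner, the counter, its use of strand or its annotation. The signal the authors deposited is the mean normalized count per gene, the deposited fold change and SE are on the log2 scale, the deposited score is the Wald statistic, and the deposited p-value and adjusted p-value follow from it, per the file headers. The score was checked to equal fold change over SE (largest gap 2.86e-07) and the adjusted p to be the Benjamini-Hochberg adjustment over 18085 genes (largest relative gap 0.757%). The other genes, with low counts or no p, had none and were left out.

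Signs were turned to knockout over wild type by H2bc21. Intervals are the log2 fold change ± the normal 95% limit times the SE. Derived genotype means are the 2 values whose average is the mean normalized count and whose ratio is the fold change, and carry no error of their own. Exon lengths are unions of GENCODE M21 exons (GRCm38, the assembly of mm10). The labels call the libraries biological replicates, and whether they are separate litters or cultures is not given. The p-values compare each fold change with an SE estimated from these libraries, so what they say beyond these libraries is not known.

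The members and lists were chosen with earlier results of these data known. Named genes are the members, H2bc21 and, per list, up to 4 called genes of smallest adjusted p, or with none called the 2 of highest mean count. With 1 fold change per gene there is no pattern over samples, and no genes of like pattern were named. Proteins were not analysed here. Of the listed genes, Rps6ka4 and Gjb6 had no row. Adjustment methods were tested on simulated data. Alternatives were the set of genes adjusted over, the null distribution, the threshold and centring. Python 3.11.15, numpy 2.4.6, scipy 1.17.1, pandas 2.3.3 and matplotlib 3.10.9 were used.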

Additional observations from a re-analysis of the deposited data

How the results depend on the processing

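No paired analysis was possible because the table holds 1 fold change per gene and no values per library, and for the same reason no replicate could be left out. Of the 7 alternatives, 6 leave the fold changes as they are and centring moved them by 0.01 on the log2 scale, so they bear on the calls and not on the signs. The count of members called stayed 1 (Egr3) with genes of mean count 100 or more (adjusted p = 0.0324, DESeq2 p), at a threshold of 0.1 and after centring on the median gene (adjusted p = 0.0391). It was 0 with adjustment over all genes with a p, at a threshold of 0.01, with 6 degrees of freedom of a t distribution and with a null scaled by 1.96, the spread of the middle of all Wald statistics. Under these last 2, the number called was 0 in each of the 15 other lists too, while 1 and 70 of all tested genes passed. With the threshold at 0.01, calls were 3 among the other immediate early genes, 1 among CREB and MEF2 factors, 0 among partners and 1 among microglia markers. At 0.1 they were 2 each among SRF and TCF factors, partners and oligodendrocyte markers. With genes of mean count 100 or more they were 2 among partners and 0 among microglia and endothelial markers, all of which fall under that count, so that none could be called. The share of calls higher in the knockout moved little with centring, from 1981 of 3948 genes to 2089 of 3930. For the 9 members the SE was 8.25 to 54.0 times the counting error. Counting error was not computed for the other lists.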

Other observations

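Large errors were also seen in other activity-regulated genes and in interneuron genes, and less in the genes upstream. Set beside tested genes of similar mean count, the SE was over 2 times the median for 5 of 8 AP-1 factors, with Fosb highest at 4.94 times. It was over 2 times for 5 of 9 reported Npas4 targets, with Bdnf at 4.37 times, and for 10 of 30 other immediate early genes, with Ccn1 at 4.18 times. None of the 6 SRF and TCF factors, 9 CREB and MEF2 factors or 18 kinases and calcineurin subunits exceeded 2 times. All 8 interneuron markers did, with Gad2 highest at 4.06 times, as did 5 of 7 astrocyte markers and 3 of 8 projection neuron markers, but none of 10 general neuron markers. These genes were named for the size of their SE after it was seen, and what the libraries with high and low values share was not tested.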
